A study of Mus musculus with 4 samples.

Results

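Crypt stem cell markers other than Lgr5 were followed in intestinal adenomas with and without Strap. The 10 genes were taken by symbol: Ascl2, Olfm4, Smoc2, Msi1, Tnfrsf19, Cdca7, Prom1, Phlda1, Hopx and Sorl1. All 10 were listed in all 4 libraries, among 17762 genes listed in at least 1, and all 10 passed the filter on low counts that left 12769 genes for testing. The libraries are poly(A) RNA from adenomas of C57BL/6 mice aged 110 days. The 2 KO libraries are labelled ApcMin Strap KO (StrapIEKO in the series' design text) and the 2 WT libraries ApcMin Strap WT. Every animal thus carried the ApcMin allele, a truncating mutation of the tumour suppressor gene Apc that gives rise to intestinal tumours, and no library came from normal mucosa or from mice without that allele. The labels and design text do not say which promoter was used to delete Strap, which exons were removed, or how many adenomas or animals went into a library. p-values therefore measure the spread between these libraries alone.

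Stem cells at the base of the intestinal crypt divide steadily and renew the epithelium, and Wnt signalling keeps them in that state. In Apc-mutant adenomas beta-catenin is no longer degraded, and part of the crypt base programme stays active in tumour cells. The markers fall into several kinds. Tnfrsf19, Sorl1 and Prom1 encode membrane proteins, Olfm4 and Smoc2 secreted ones, and Phlda1 an intracellular protein with a pleckstrin homology-like domain. Ascl2 and Hopx encode transcriptional regulators, Msi1 an RNA-binding protein and Cdca7 a nuclear protein. Hopx is known for slow-cycling cells above the crypt base, while most of the others are known for the Lgr5-positive cells at the base.

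Each library held between 14084831 and 15640941 expected counts in total. Levels of a gene across libraries are given as CPM, expected counts scaled to a common library total with TMM factors, and levels between genes as the authors' FPKM, which is scaled by transcript length. Strap had 300 and 364 expected counts in KO replicates 1 and 2, against 2445 and 1724 in WT replicates 1 and 2, in the order that the labels give. Epithelial genes were abundant in all 4 libraries, with a summed level of 15283 and 11048 CPM in KO and 12823 and 15060 CPM in WT over 11 genes such as Epcam and Vil1. Although the labels name the colon, Sis, the small-intestinal sucrase-isomaltase gene, was at 1969 to 4707 CPM, while the colonic genes Car1 and Hoxb13 reached at most 4.22 and 0.779 CPM. The WT libraries differed in make-up. In WT replicate 1, 9 regenerative epithelium genes summed to 1183 CPM, of which Clu made up 1035 CPM, and 7 gastric and Brunner gland genes to 458 CPM. Elsewhere these sums were 57.8 to 89.3 CPM and 0.205 to 3.70 CPM. In WT replicate 2, 10 Paneth cell genes summed to 39314 CPM, and elsewhere to between 10405 and 17827 CPM. That library also stood apart in genes of small-intestinal regions. The transcription factor genes Gata4 and Onecut2, which mark the upper small intestine, were at 27.3 and 1.69 CPM there and at 134 to 165 and 28.0 to 72.2 CPM in the others. Fabp6, whose product carries bile acids in cells of the ileum, was at 2453 CPM there and at 118 to 894 CPM in the others. Xist, expressed from an inactive X chromosome, was at 197 CPM in KO replicate 1 and 968 CPM in WT replicate 1 and below 1 CPM in both replicates 2. The Y-linked gene Ddx3y was at 0 in both replicates 1, and at 33.3 CPM in KO replicate 2 and 39.1 CPM in WT replicate 2. By these genes both replicates 1 had the female pattern and both replicates 2 the male one.

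**Figure D1:**
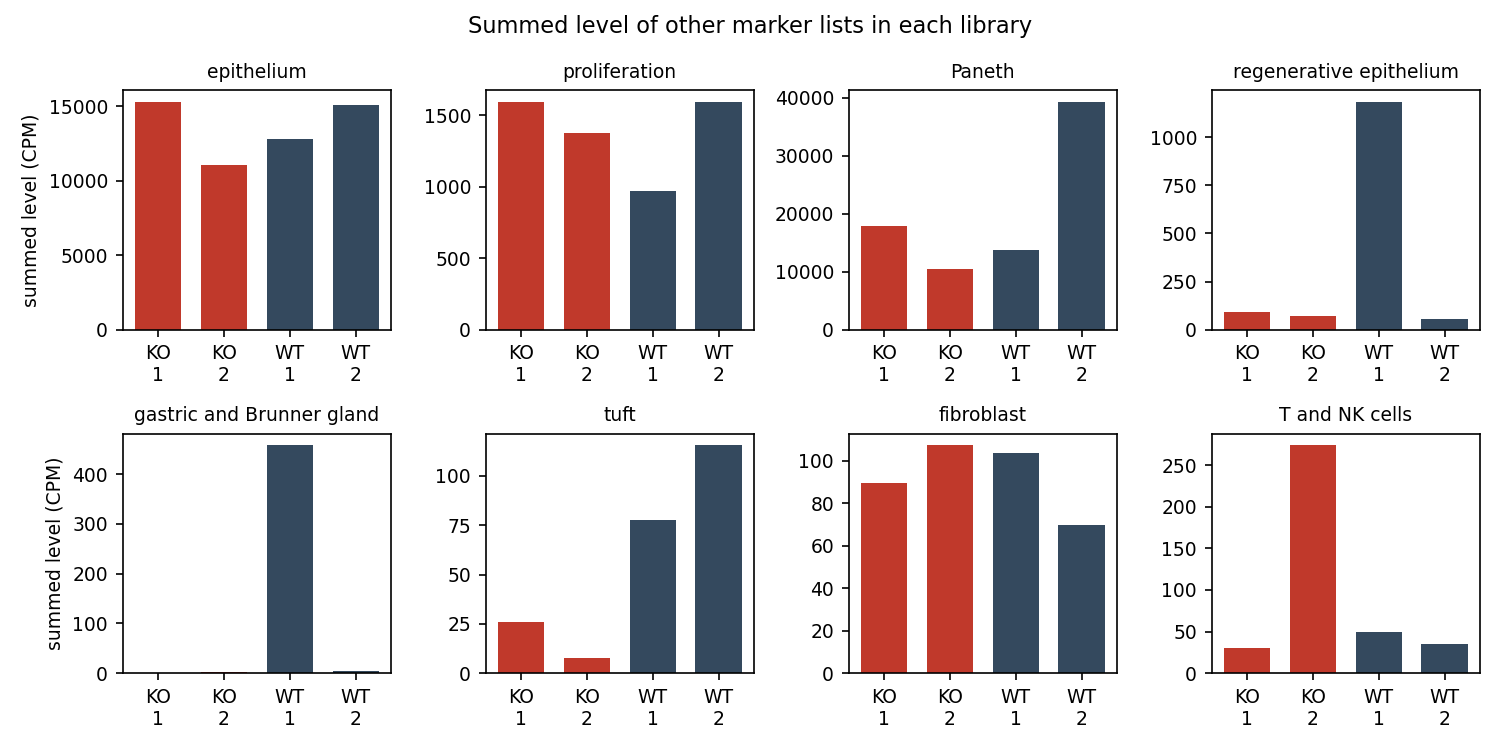
Summed level in CPM (vertical axis, from 0, with its own scale in each panel) of 8 other marker lists in each of the 4 libraries, with KO in red and WT in dark blue. WT replicate 1 stands apart in the regenerative and gastric panels at 1183 and 458 CPM, WT replicate 2 in the Paneth panel at 39314 CPM, and KO replicate 2 in the T and NK cell panel at 274 CPM.

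The comparison of KO with WT asks which stem cell markers are lower when Strap is targeted and which hold their level. Tnfrsf19, Phlda1 and Sorl1 stood at 19.1%, 32.9% and 58.0% of their WT level in KO, and each KO library lay below each WT library. Prom1 had the same order of libraries at 77.0% of its WT level. Ascl2, Smoc2, Cdca7, Msi1, Olfm4 and Hopx had KO and WT libraries that overlapped. By edgeR's quasi-likelihood test with Benjamini-Hochberg adjustment over all 12769 genes, 0 of the 10 markers passed an adjusted p of 0.05 in either direction. The background is 0% of tested genes called lower and 0.00783% called higher, so that the test made almost no calls on any gene. At an unadjusted p under 0.05 the 3 genes Phlda1, Tnfrsf19 and Sorl1 were lower, against 8.69% of all tested genes, and none was higher, against 7.08%. DESeq2 called 2 of the 10 lower, Phlda1 and Tnfrsf19, against 3.26% of its 13270 genes, and none higher, where it called 1.77% of its genes. limma on log2 FPKM called 0 of the 10, but it also called 0 of all tested genes in either direction, so its result does not set the markers apart. Over the 10 markers the median log2 fold change was -0.42, with 9 below 0, against a median of 0.0037 over all tested genes, of which 49.7% were below 0. Tuft and Paneth cell genes lay in the same direction. All 6 tested tuft cell genes were below 0 (median -2.35, 0 called by edgeR, 5 lower by unadjusted p under 0.05, 3 called lower by DESeq2), and the tuft list summed to 25.8 and 7.5 CPM in KO and 77.8 and 115 CPM in WT, with 1 of its 8 listed genes at 0 in each of KO replicate 1, KO replicate 2 and WT replicate 1. All 10 Paneth cell genes were below 0 too (median -0.95, 0 called by edgeR, 2 lower by unadjusted p under 0.05, 2 called lower by DESeq2), with none at 0 in any library. The Paneth list summed to 17827 and 10405 CPM in KO and 13784 and 39314 CPM in WT. WT replicate 1 thus fell between the KO libraries, and WT replicate 2 alone stood above them. In 3 of the 10 Paneth cell genes each KO library was below each WT library, against 24.6% of all tested genes. In 0 of them each was above, against 25.5%. The part of tuft and Paneth cells in the markers' values was not tested. The libraries are bulk tissue, in which fewer cells of a type and less RNA per cell cannot be told apart.

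**Figure D2:**
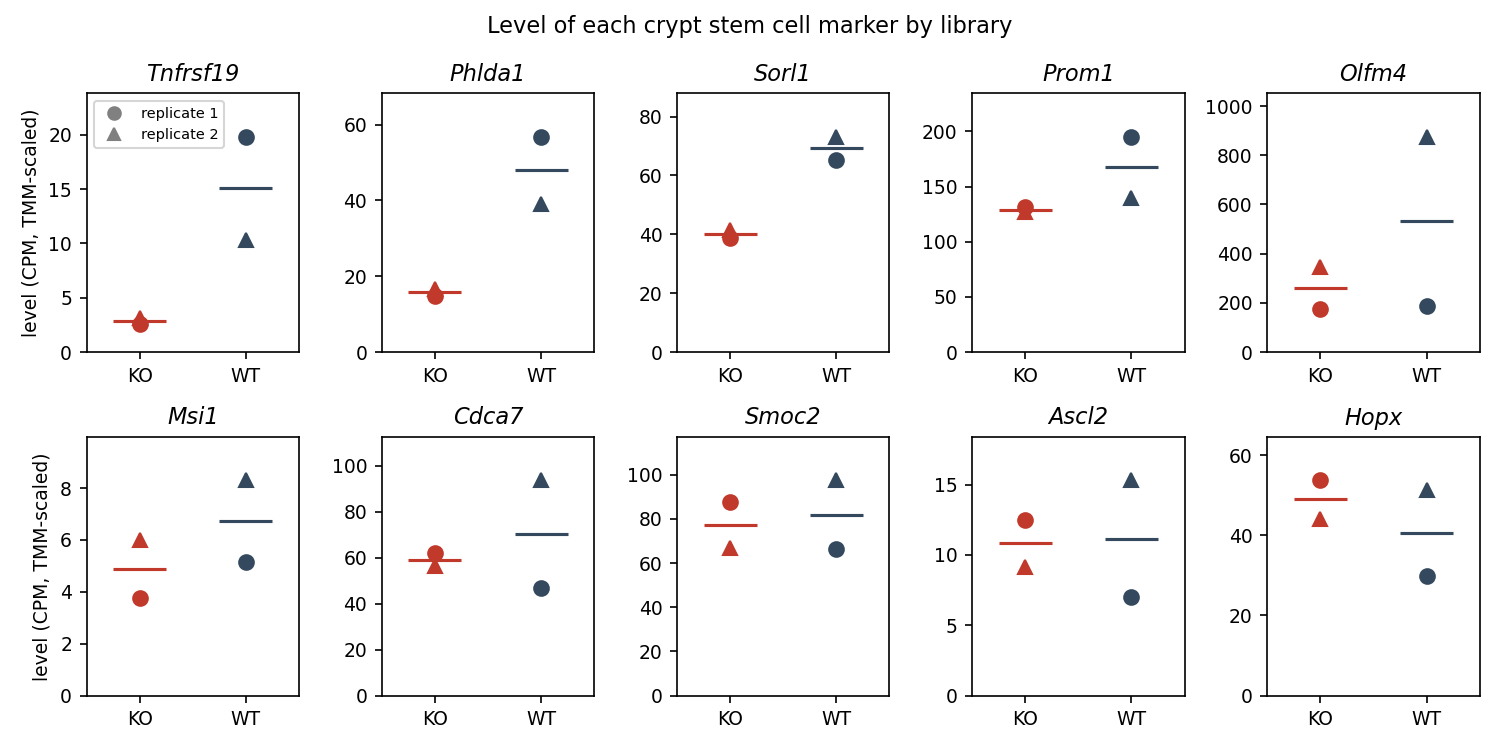
Level in CPM (vertical axis, from 0, with its own scale in each panel) of the 10 markers in the 2 KO libraries (red, left) and the 2 WT libraries (dark blue, right), where circles are replicate 1, triangles replicate 2 and lines the group mean. Tnfrsf19, Phlda1, Sorl1 and Prom1 have each KO library below each WT library, and in the other 6 panels the groups overlap.

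Among the membrane proteins, Tnfrsf19 was the lowest in KO relative to WT. It encodes the receptor Troy, a member of the tumour necrosis factor receptor family that is a Wnt target and marks crypt base cells. Tnfrsf19 (Entrez 29820, chr14:60963834-61046855, minus strand, GRCm38.p6) had 38 and 46 expected counts in KO replicates 1 and 2, against 309 and 159 in WT replicates 1 and 2. This gave 2.60 and 3.13 CPM in KO, against 19.8 and 10.3 CPM in WT, so that the lowest WT library was 3.29 times the highest KO library. The WT libraries themselves differed 1.92-fold, with replicate 1 above replicate 2. The log2 fold change was -2.39 (SE 0.46, 95% interval -3.52 to -1.26), with an adjusted p of 0.162 in edgeR and 0.000601 in DESeq2. Without WT replicate 1, the library with the high regenerative and gastric sums, it was -1.86. Without WT replicate 2, which leaves WT replicate 1 as the only WT library, it was -2.77.

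Tnfrsf19 has 2 annotated starts in the RefSeq promoter table, and both windows are shown because the gene had the lowest KO level relative to WT of the 10 and 1 window holds both motifs searched. The motifs were CTTTGAT, the core of the site of the Wnt effectors TCF and LEF, read on both strands (ATCAAAG on the other), and CAGCTG, an E-box of the class that ASCL2 binds, which is its own reverse complement and does not overlap the other. Each window runs 5′ to 3′ from 250 bases before to 50 bases after the start, with motifs in capitals. Windows of Sorl1, another marker lower in both KO libraries, and of Ascl2, whose groups overlapped, are shown beside them.
Tnfrsf19, upstream start (chr14:61046806-61047105, minus strand, GRCm38.p6): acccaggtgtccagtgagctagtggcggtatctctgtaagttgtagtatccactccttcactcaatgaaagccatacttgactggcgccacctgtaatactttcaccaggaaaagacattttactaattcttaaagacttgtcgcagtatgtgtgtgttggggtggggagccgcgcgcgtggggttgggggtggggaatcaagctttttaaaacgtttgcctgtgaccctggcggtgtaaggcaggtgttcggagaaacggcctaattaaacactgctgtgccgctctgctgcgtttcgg
Tnfrsf19, downstream start (chr14:61037938-61038237, minus strand, GRCm38.p6): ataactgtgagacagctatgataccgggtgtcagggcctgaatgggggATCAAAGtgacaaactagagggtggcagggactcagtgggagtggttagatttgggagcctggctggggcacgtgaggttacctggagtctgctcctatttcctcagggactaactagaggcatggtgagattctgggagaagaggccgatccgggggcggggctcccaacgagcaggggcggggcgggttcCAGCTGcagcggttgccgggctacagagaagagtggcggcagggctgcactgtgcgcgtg
Sorl1, upstream start (chr9:42124248-42124547, minus strand, GRCm38.p6): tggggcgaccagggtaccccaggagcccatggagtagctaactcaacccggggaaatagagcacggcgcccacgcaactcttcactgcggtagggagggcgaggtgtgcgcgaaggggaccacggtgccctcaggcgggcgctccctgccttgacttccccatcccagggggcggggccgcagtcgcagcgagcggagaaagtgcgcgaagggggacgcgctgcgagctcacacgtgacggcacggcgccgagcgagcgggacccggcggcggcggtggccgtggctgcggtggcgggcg
Ascl2 (chr7:142969215-142969514, minus strand, GRCm38.p6): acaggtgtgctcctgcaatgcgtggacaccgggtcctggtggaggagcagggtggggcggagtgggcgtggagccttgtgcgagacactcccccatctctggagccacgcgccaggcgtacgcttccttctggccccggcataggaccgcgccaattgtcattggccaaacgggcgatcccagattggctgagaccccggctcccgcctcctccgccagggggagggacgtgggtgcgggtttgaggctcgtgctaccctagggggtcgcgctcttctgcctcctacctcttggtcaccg
The downstream window of Tnfrsf19 held ATCAAAG beginning 202 bases before the start and CAGCTG beginning 10 bases before it, and the upstream window held neither. Windows were found for 7 of the 10 markers, 11 in all, and CTTTGAT in either reading was in 1 of them, against 3.73% of 32851 promoter windows of the same length. CAGCTG was in 2 of the 11, the second being Hopx, against 16.3% of all windows. The Sorl1 and Ascl2 windows shown held neither. A match describes these letters only. Phlda1, Smoc2 and Msi1 were not matched in the table.

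Sorl1 was lower in KO with the least spread of the markers. It encodes a sorting receptor with a VPS10 domain that carries cargo between the Golgi and endosomes, and it is part of the Lgr5 stem cell signature of the mouse intestine. Sorl1 (Entrez 20660, chr9:41964709-42124297) had 568 and 609 expected counts in KO, against 1018 and 1128 in WT. On the CPM scale this was 38.8 and 41.5 in KO and 65.3 and 73.2 in WT, with a lowest WT library 1.57 times the highest KO library. The KO libraries differed 1.07-fold and the WT libraries 1.12-fold. The log2 fold change was -0.79 (SE 0.19, 95% interval -1.26 to -0.32), with an adjusted p of 0.211 in edgeR and 0.0570 in DESeq2, so that neither tool called it. With any 1 library left out it lay between -0.88 and -0.68.

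Prom1, which encodes the pentaspan membrane glycoprotein CD133 and is found in crypt cells beyond the stem cells, was at 131 and 127 CPM in KO, against 195 and 139 CPM in WT (Entrez 19126, chr5:43993621-44102047). Each KO library was below each WT library, but KO replicate 1 and WT replicate 2 were only 1.06-fold apart. Its log2 fold change was -0.38 (SE 0.24, 95% interval -0.96 to 0.21, edgeR adjusted p = 0.481), and -0.13 without WT replicate 1. Of the 10 markers, 4 had both KO libraries below both WT libraries, against 24.6% of all tested genes, and 0 had them above, against 25.5%.

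Phlda1 encodes a protein with a pleckstrin homology-like domain, an early response gene product that also marks the crypt base. It had 216 and 246 expected counts in KO, against 886 and 602 in WT (Entrez 21664, chr10:111506286-111508649). In CPM these were 14.8 and 16.8 in KO and 56.8 and 39.1 in WT, and the lowest WT library was 2.33 times the highest KO library. Phlda1 had the smallest p of the 10, the 93rd smallest of all tested genes. The log2 fold change was -1.60 (SE 0.26, 95% interval -2.25 to -0.96), with an adjusted p of 0.131 in edgeR and 0.000264 in DESeq2. It was -1.33 without WT replicate 1 and -1.83 without WT replicate 2. Phlda1 and Tnfrsf19 were at their highest in WT replicate 1, where Clu, Anxa1 and Il1rn were also highest and the regenerative genes Ly6a and Ereg were not, and the part of that library's make-up in the result was not tested beyond leaving it out. Both were lower in each KO library than in WT replicate 2, where the regenerative and gastric sums were 57.8 and 3.70 CPM. WT replicate 2 itself stood apart in other genes, with a Paneth sum of 39314 CPM, and its part in the result was not tested either.

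**Figure D3:**
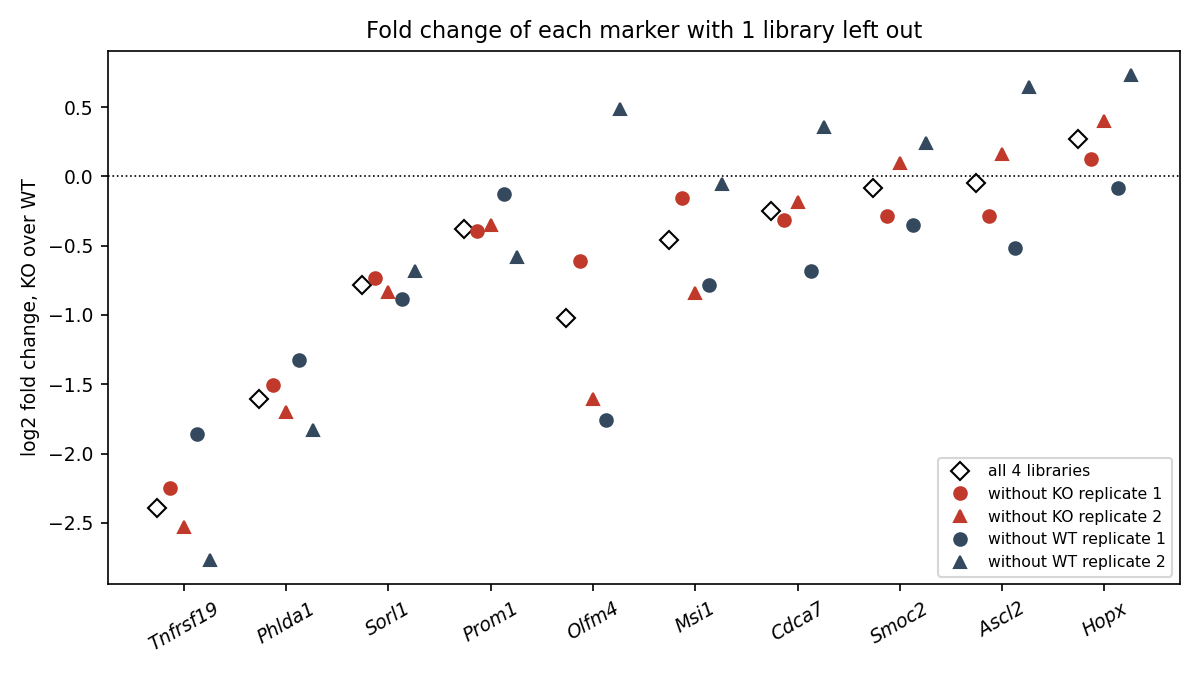
log2 fold change of KO over WT (vertical axis) for each of the 10 markers (horizontal axis) from all 4 libraries (open diamonds) and with 1 library left out (red, a KO library; dark blue, a WT library). Tnfrsf19, Phlda1, Sorl1, Prom1 and Msi1 stay below 0 in the 4 cases, while Olfm4, Cdca7, Smoc2, Ascl2 and Hopx cross 0 in at least 1.

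The secreted markers gave no stable direction. Olfm4 encodes an olfactomedin-domain glycoprotein that is abundant in small-intestinal crypt base cells. It was by FPKM the most abundant of the 10 in every library, with 104 and 230 FPKM in KO, against 121 and 562 FPKM in WT. In CPM it stood at 176 and 348 in KO replicates 1 and 2, and at 189 and 876 in WT replicates 1 and 2 (Entrez 380924, chr14:80000302-80023141). WT replicate 2 was 4.64 times WT replicate 1, more than the difference between the groups. That library was also the highest in Paneth cell genes, whose neighbours at the crypt base express Olfm4, and the part of this in the result was not tested. The log2 fold change was -1.02 (SE 0.72, 95% interval -2.80 to 0.75, edgeR adjusted p = 0.521), and it was 0.49 without WT replicate 2.

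Smoc2, which encodes a secreted calcium-binding matrix protein of the SPARC family, was at 87.8 and 66.9 CPM in KO, against 66.3 and 97.5 CPM in WT (Entrez 64074, chr17:14279490-14404790). Both KO libraries lay between the WT libraries. Its log2 fold change was -0.083 (SE 0.27, 95% interval -0.74 to 0.58, edgeR adjusted p = 0.907), and it was 0.24 without WT replicate 2 and 0.098 without KO replicate 2. Fibroblasts also express Smoc2. The collagen genes Col1a1 and Col3a1 and the decorin gene Dcn, which define fibroblasts, were at most 1.60, 1.92 and 2.44 CPM in any library. The fibroblast list summed to 89.7 and 107 CPM in KO and 104 and 69.8 CPM in WT, of which Fbln1 made up 79.6 and 91.1 CPM in KO and 75.6 and 53.6 CPM in WT. Only 5 of its 11 genes passed the filter on low counts, and of the 11 genes 2 and 1 were at 0 in KO replicates 1 and 2, and 0 and 2 in WT replicates 1 and 2.

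The nuclear and RNA-binding markers also had overlapping groups. Ascl2, a basic helix-loop-helix transcription factor that maintains crypt base stem cells and responds to Wnt, had 183 and 134 expected counts in KO, against 109 and 236 in WT (Entrez 17173, chr7:142966822-142969264). Its CPM were 12.5 and 9.13 in KO and 6.99 and 15.3 in WT. Both KO libraries lay between the WT libraries, which differed 2.19-fold. The log2 fold change was -0.044 (SE 0.46), and its 95% interval of -1.18 to 1.09 spans a change of more than 2-fold either way. Without WT replicate 2 it was 0.65, without KO replicate 2 it was 0.16, and without WT replicate 1 it was -0.52.

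Cdca7, a MYC and E2F target that takes part in DNA methylation at replication, was at 61.9 and 56.3 CPM in KO, against 46.8 and 93.8 CPM in WT (Entrez 66953, chr2:72476187-72486892). Here too both KO libraries lay between the WT libraries, with a log2 fold change of -0.25 (SE 0.34, 95% interval -1.09 to 0.59) and 0.35 without WT replicate 2. The 14 proliferation genes summed to 1595 and 1376 CPM in KO and to 970.3 and 1592 CPM in WT, so that WT replicate 1 was lowest for them as it was for Cdca7. Of these 14 genes, 8 were above and 6 below 0 in log2 fold change and 0 passed in edgeR, 0 at an unadjusted p under 0.05 and 0 in DESeq2. Those with the smallest p were the mitotic genes Cdc20, Ccna2, Cdk1 and Ccnb1, with log2 fold changes of 0.86, 0.70, 0.67 and 0.60.

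Hopx, an atypical homeodomain protein that does not bind DNA itself, was the 1 marker whose mean was higher in KO. It was at 53.8 and 44.1 CPM in KO, against 29.8 and 51.4 CPM in WT (Entrez 74318, chr5:77086986-77115123). Its log2 fold change was 0.27 (SE 0.30, 95% interval -0.48 to 1.02, edgeR adjusted p = 0.695), and -0.087 without WT replicate 1, the lowest library. Msi1 encodes Musashi-1, an RNA-binding protein that controls translation of its target messages. It was at 3.76 and 6.00 CPM in KO and 5.13 and 8.31 CPM in WT (Entrez 17690, chr5:115359059-115455698), with 55 and 88 expected counts in KO and 80 and 128 in WT. In both groups replicate 2 was above replicate 1, by 1.60-fold in KO and 1.62-fold in WT, and the log2 fold change was -0.46 (SE 0.48, 95% interval -1.64 to 0.72). It was -0.84 without KO replicate 2 and -0.057 without WT replicate 2.

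Levels set against Ascl2 within each library do not depend on how libraries are scaled. Tnfrsf19 stood at 0.208 and 0.343 of the Ascl2 CPM in KO, against 2.83 and 0.674 in WT. For Phlda1 the ratio was 1.18 and 1.84 in KO and 8.13 and 2.55 in WT. For Sorl1 it was 3.10 and 4.54 in KO and 9.34 and 4.78 in WT, a difference that nearly closed in WT replicate 2. In these 3 ratios each KO library was below each WT library, and the exact two-sided permutation p was 0.333, the smallest that 2 against 2 libraries allow. The ratio of Olfm4 was 14.1 and 38.1 in KO and 27.0 and 57.2 in WT, and the groups overlapped (exact permutation p = 0.667). Prom1 relative to Ascl2 was at 10.5 and 13.9 in KO and 27.9 and 9.11 in WT, also overlapping (exact permutation p = 1). These 5 ratios were chosen with the markers' values known, and no adjustment can bring a p of 0.333 under the threshold.

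By FPKM the markers spanned a wide range of levels. Olfm4 averaged 254 FPKM over the 4 libraries and lay at the 94.1st to 99.0th percentile of listed genes. Hopx and Prom1 followed with means of 42.1 and 41.7 FPKM, then Smoc2 and Cdca7 with 28.6 and 28.1, Phlda1 with 16.9, Sorl1 with 7.96, Ascl2 with 7.05, Msi1 with 3.92 and Tnfrsf19 with 2.19. Apart from Olfm4, each marker's range over the libraries overlapped that of its neighbour in this order. Tnfrsf19 varied most between libraries, by 8.36-fold, followed by Olfm4 with 5.41-fold and Phlda1 with 4.16-fold, and Smoc2 least, by 1.47-fold. Only Olfm4 kept its place in the order in all 4 libraries. Phlda1 was 7th and 6th of the 10 in KO and 3rd and 6th in WT, Cdca7 5th and 4th in KO and 6th and 3rd in WT, and Ascl2 6th and 8th in KO and 9th and 8th in WT. The other 6 moved by at most 2 places.

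The markers differed in which library was highest. WT replicate 2 was the highest library for 6 of them, Olfm4, Ascl2, Cdca7, Smoc2, Msi1 and Sorl1, against 21.4% of all tested genes. WT replicate 1 was the highest for Tnfrsf19, Phlda1 and Prom1, against 28.8% of all tested genes. KO replicate 1 was the highest for Hopx alone, against 32.9% of all tested genes. Among 147 other tested genes of the lists, the gene nearest to each marker over the 4 libraries was found by the Euclidean distance of log2(CPM + 1) after centring each gene on its mean. The distance between Tnfrsf19 and Sorcs2 was 0.236. Sorcs2, a VPS10-domain receptor gene related to Sorl1, stood at 5.94 and 6.27 CPM in KO, against 37.5 and 23.8 CPM in WT. The nearest gene to Phlda1 was Tnfrsf19 (0.530), that to Sorl1 was Ephb3 (0.221), an Eph receptor gene of the crypt, and that to Msi1 was Axin2 (0.111), a Wnt feedback gene. For Ascl2 it was Cdca7 (0.283), for Cdca7 Spdef (0.227), for Smoc2 Epcam (0.174), for Hopx Cdx2 (0.210), for Prom1 Alpi (0.174) and for Olfm4 Car1 (0.318). Car1 was near the lower limit, with 0 and 23 expected counts in KO and 1 and 65 in WT. At such levels the 1 added to CPM narrows the range between libraries. These are descriptions over 4 libraries.

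Other crypt stem cell genes, not all of them particular to the crypt base, give the setting. In a list of 26, all listed and 25 tested, 21 were below and 4 above 0, with a median log2 fold change of -0.64. Dclk1 is in both this list and the tuft list. By edgeR 0 of the 25 passed in either direction. At an unadjusted p under 0.05, 8 were lower, against 8.69% of all tested genes, and 0 higher, against 7.08%. DESeq2 called 6 of the 25 lower, against 3.26% of its genes, and 0 higher, against 1.77%. In 12 of the 25 each KO library was below each WT library, against 24.6% of all tested genes, and in 0 above, against 25.5%. Lgr5, the R-spondin receptor gene, was at 4.85 and 6.27 CPM in KO, against 34.5 and 70.6 CPM in WT, and the ratio of Lgr5 to Ascl2 was 0.388 and 0.687 in KO and 4.93 and 4.61 in WT. Nrn1, the neuritin gene, was at 0.137 and 0.0681 CPM in KO, against 29.5 and 8.31 CPM in WT. Rnf43, whose ubiquitin ligase removes Wnt receptors from the cell surface, had a log2 fold change of -1.08 and Cd24a, a surface glycoprotein gene, -1.06. Among them Ephb2, Cd44, Lrig1 and Bmi1, named after their values were seen, had log2 fold changes of 0.09, 0.09, 0.11 and -0.04. Gkn3 in the list was at 0.0683 CPM and 0 in KO, against 46.1 and 1.82 CPM in WT, and was thus high in the WT library with the gastric sum.

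**Figure D4:**
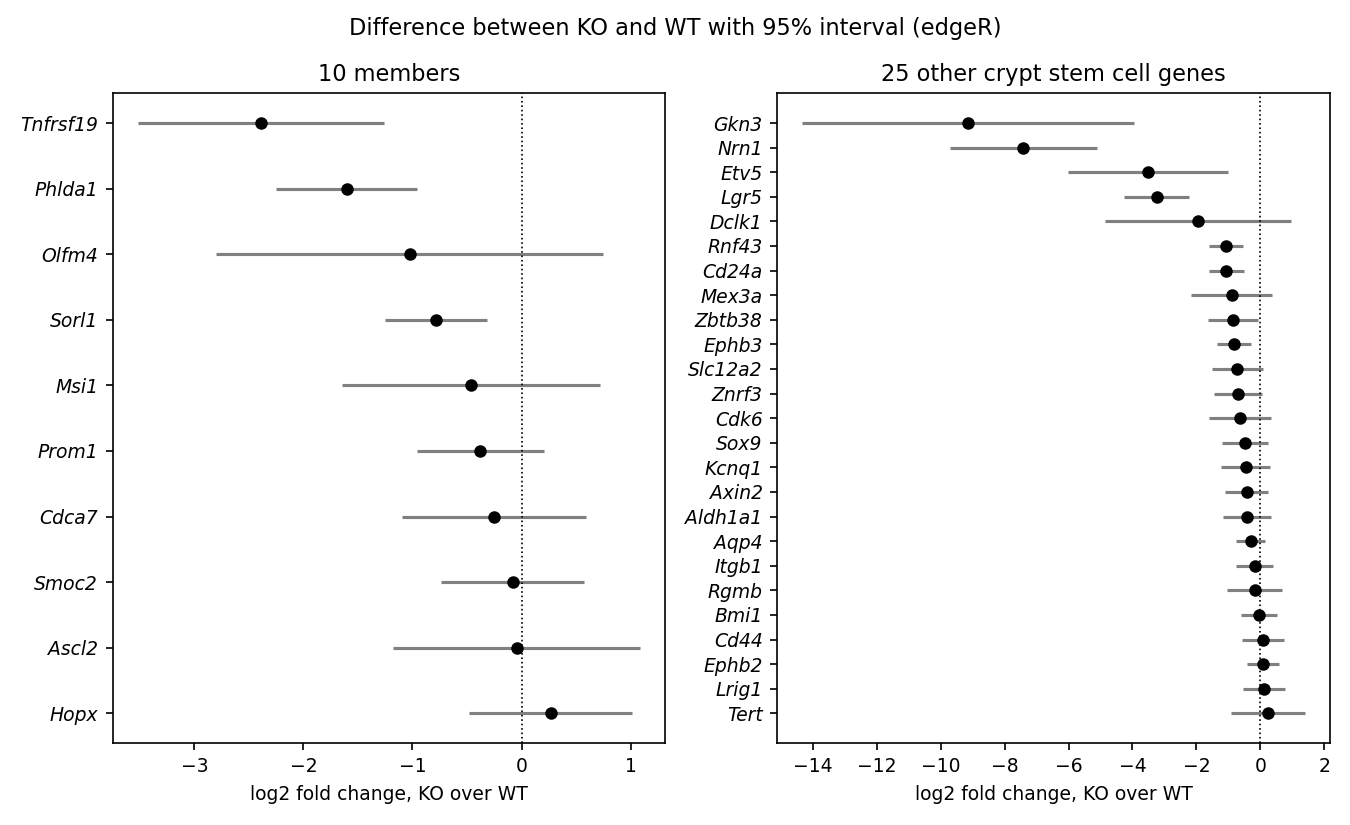
log2 fold change of KO over WT (horizontal axis) with its 95% interval from edgeR for the 10 markers (left) and 25 other crypt stem cell genes (right, on a wider scale), each sorted from lowest to highest. The intervals of Tnfrsf19, Phlda1 and Sorl1 lie below 0 and those of the other 7 markers cross it.

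Relatives of the markers were set beside them. Of 10 related genes 8 were tested, 5 below and 3 above 0, with 0 passing in edgeR. At an unadjusted p under 0.05, 2 were lower, against 8.69% of all tested genes. DESeq2 called 2 lower, Sorcs2 and Msi2, against 3.26% of its genes. Msi2, the other Musashi gene, was at 22.9 and 24.2 CPM in KO, against 52.1 and 41.0 CPM in WT, a log2 fold change of -0.98 (SE 0.22, edgeR adjusted p = 0.195, DESeq2 adjusted p = 0.0307). Per length, Msi2 stood at 3.31 and 3.91 FPKM in KO and 8.15 and 6.42 FPKM in WT, and Msi1 at 2.35 and 4.21 FPKM in KO and 3.48 and 5.65 FPKM in WT. The groups of Msi2 did not overlap in CPM, while those of Msi1 did. The difference between Msi1 and Msi2 in fold change was not tested. Sort1, the sortilin gene, had a log2 fold change of -0.70 with 202 and 196 CPM in KO and 251 and 397 CPM in WT. Smoc1 was near the lower limit, at 0.273 and 0.613 CPM in KO and 1.15 and 1.04 CPM in WT.

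Regenerative epithelium genes, which mark crypt cells after injury, were of mixed direction. Of 9 genes 7 were tested, 3 above and 4 below 0, with 0 passing in edgeR. By unadjusted p under 0.05, 1 was higher and 3 lower, against 7.08% and 8.69% of all tested genes. DESeq2 called 1 higher and 2 lower, against 1.77% and 3.26% of its genes. Ly6a, the Sca-1 gene, was at 46.9 and 34.8 CPM in KO, against 7.25 and 3.89 CPM in WT, a log2 fold change of 2.87. Clu, the clusterin gene, was at 6.83 and 3.61 CPM in KO, against 1035 and 10.5 CPM in WT, and so was high in WT replicate 1 alone. Anxa1 and Il1rn had the same pattern, with 50.8 and 31.4 CPM in WT replicate 1 and at most 3.11 and 4.48 CPM in the other libraries.

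The tables also give a mean transcript length per gene, which moves with the mix of annotated transcripts. For 7 of the markers it was the same in every library. Prom1 had a mean length of 3676 and 3644 bases in KO (SD 22.8, n = 2), against 3548 and 3589 bases in WT (SD 28.9, n = 2), so that both KO libraries were above both WT libraries, as in 12.9% of the 3688 tested genes whose length varied. Hopx had 1120.0 and 1116.9 bases in KO (SD 2.21) and 1131.6 and 1120.5 bases in WT (SD 7.86), with both KO libraries below both WT libraries, as in 19.9% of those genes. Tnfrsf19 had 4143 and 4124 bases in KO (SD 14.1) and 4115 and 4359.9 bases in WT (SD 173), and the groups overlapped. The lengths were not tested. Of the genes that overlap a marker in the RefSeq annotation, 1 was listed, a long noncoding RNA within the span of Smoc2 with 1 expected count in WT replicate 2.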

How the data were processed

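The 4 deposited tables hold expected counts per gene (RSEM, per the file headers) and FPKM, which the authors scaled for the length of the transcripts and for depth. RSEM 1.2.12, Bowtie2 2.2.5 and the build mm10 are named in the submitters' processing notes, with no role or order. Nothing states whether counting used strand. Tables list FPKM of at least 0.01, and a gene missing from a table was set to 0.

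Tables were joined by Entrez identifier in pandas 2.3.3, and 1 row without a gene was left out per library (at most 0.000233% of counts). Expected counts were rounded and KO was compared with WT over all genes in R 4.3.3 with edgeR 4.0.16 (quasi-likelihood test, TMM, filterByExpr, genotype as the only term). Calls were made at an adjusted p of 0.05 (Benjamini-Hochberg). Genes varied between libraries of a group by a biological coefficient of 32.5%, and 2 residual degrees of freedom were left. SEs were the log2 fold change over the root of the F statistic. The fit was tested on simulated data with known changes. Gene coordinates and promoter windows came from RefSeq (GRCm38.p6).

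The 10 markers and the 20 other gene lists were chosen with earlier results of these data known. Named were all markers, Strap, Lgr5, up to 4 genes of each list discussed, those of lowest p, genes that check the tissue and the nearest gene of each marker. Genes beyond this, such as Gkn3, were picked with their values in view, and 1 gene is not reported here. Alternatives tried were DESeq2 size factors, library size alone, scaling to epithelium genes, no filter, at least 50 counts in 2 libraries, DESeq2 1.42.0, limma 3.58.1 (trend) on FPKM as log2(FPKM + 1) or log2(FPKM + 0.1), a replicate block, each library left out, a change of at least 2-fold and, added after seeing the data, a crossed pairing.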

Additional observations from a re-analysis of the deposited data

How the results depend on the processing

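The log2 fold changes of Tnfrsf19, Phlda1, Sorl1, Prom1 and Msi1 were below 0 in all 15 alternatives, and those of Olfm4, Cdca7, Smoc2, Ascl2 and Hopx were not. The alternative of at least 2-fold altered only which genes could be called and kept the reported fold changes, so its signs could not differ. Without WT replicate 2, Ascl2, Olfm4, Smoc2 and Cdca7 turned positive, without KO replicate 2 Ascl2 and Smoc2 did, and without WT replicate 1 Hopx turned negative. With a library left out, Ascl2 ranged from -0.52 to 0.65, Olfm4 from -1.76 to 0.49, Smoc2 from -0.35 to 0.24, Cdca7 from -0.68 to 0.35 and Hopx from -0.087 to 0.73. Ascl2 was at 0.073 scaled to epithelium genes, 0.010 by limma on log2(FPKM + 0.1), 0.042 with the replicate block and 0.041 with the crossed pairing. Smoc2 was at 0.019 scaled to epithelium genes. That scaling moved the median of all genes to 0.11, and relative to it Ascl2 was at -0.0405 and Smoc2 at -0.0945. Of 10 markers, DESeq2 called 2 lower, the crossed pairing 1 (Phlda1) and leaving out a library 0 to 2, against 0 as reported. No marker was called higher in any alternative.

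Other crypt stem cell genes called lower numbered 7 of the 26 by DESeq2, 3 with the replicate block, 3 crossed, 2 with no filter and 0 to 5 with a library left out, against 0. Over all genes, calls higher and lower were 235 and 432 by DESeq2, 46 and 70 with the replicate block, 65 and 99 crossed, and 19 and 8 with no filter, against 1 and 0. They ranged from 0 to 72 and from 0 to 300 with a library left out. Higher calls were 0 with library size alone, scaled to epithelium genes and in limma on log2(FPKM + 1) and log2(FPKM + 0.1). The cause was not tested. Same-numbered libraries shared the Xist and Ddx3y pattern, so the replicate block is also a block on that pattern. The labels do not say that the numbers pair the libraries, and over all genes their deviations had a correlation of -0.13, for which the crossed pairing was added. Leaving out a library leaves a lone sample that is assumed to vary like the other group. With 2 libraries per group, an adjusted p above the threshold does not show that a marker held its level.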
